A study of Mus musculus with 16 samples.

Results

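Gene expression was compared between 4 AUG livers and the 4 wild-type livers paired with them by name, called AUG_WT here. These are 8 of the 16 libraries of the series, and they were chosen by the names of their columns in the deposited count table. The AUG group carries the genotype label mTERC CUG/AUG, and it is not stated whether the label stands for 2 alleles or for one codon put in place of another. The AUG_WT group carries the label WT, and both groups are labelled with treatment none. All mice were kept in individually ventilated cages with a 12:12 light cycle and free access to food. The labels used here state neither the age, the sex, the strain nor the promoter context of the altered gene, and they do not say that the 4 replicates of a group are separate animals. The p-values therefore speak only to variation among these libraries, part of which may be technical. In RNA from whole liver pieces, fewer cells of a type cannot be told apart from less RNA per cell.

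Terc is the gene of the telomerase RNA, the template from which telomerase copies telomere repeats. The same RNA also encodes a small protein, TERP, which has been linked to autophagy and to survival under cell stress. Most of the RNA of a liver comes from hepatocytes, which make plasma proteins, bile acids, glucose and lipids, and smaller parts come from endothelial, stellate, bile duct and immune cells and from blood. Terc itself is not analysed here.

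The 8 libraries held 9251579 to 13062119 gene counts. Xist was at 1563 to 1999 CPM (gene counts scaled by TMM to a common library size), and the Y-linked genes Ddx3y, Eif2s3y and Uty were at 0 in all 8, with Kdm5d at 0 in 7 and at 0.0721 CPM in 1, so all 8 libraries have the profile of female liver. Hepatocyte markers summed to 99800 to 105000 CPM in AUG. Among the wild types, the library of AUG_WT replicate 1 stood apart. Its B cell markers summed to 720.0 CPM against 7.69 to 37.00 CPM in the other 7, its markers of dividing cells to 358 against 6.05 to 24.2, and its hepatocyte markers to 43100 against 86700 to 149000. Bile duct markers were at 134 CPM there against 20.7 to 32.7. A set written for lymph node stroma (Ccl21a, Madcam1, Cr2 and Fcer2a) was at 5.91 against 0.342 to 3.98. Cr2 and Fcer2a are also expressed by B cells, so this set cannot show stroma. On a principal component analysis of protein-coding genes it lay alone on the first axis, which held 56.9% of the variance, while AUG_WT replicate 2 lay alone on the second, with 15.4%. The comparison was therefore fitted with all 8 libraries and with the 7 that remain without AUG_WT replicate 1. The part of these libraries' own composition in the results was not tested beyond that.

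**Figure D1:**
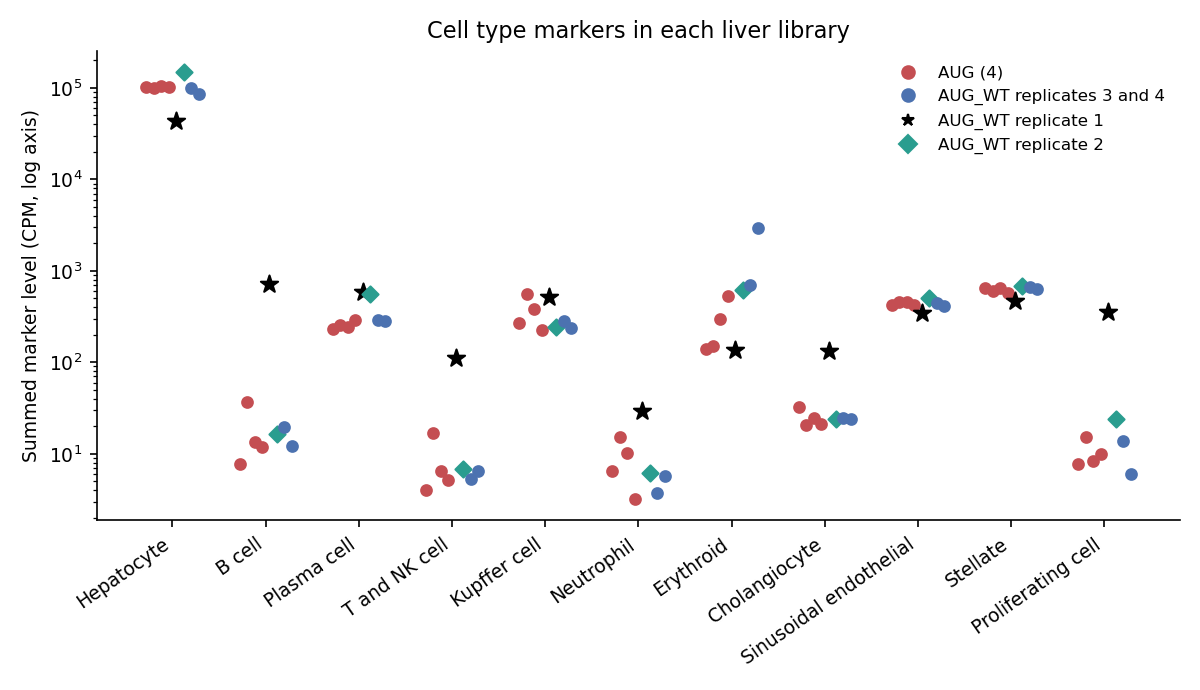
Summed level of cell type markers (CPM, log axis) in each library, with AUG in red and AUG_WT in other colours. AUG_WT replicate 1, the star, lies above the other 7 libraries for B cell, T and NK cell, neutrophil, bile duct and dividing cell markers and below them for hepatocyte markers, and AUG_WT replicate 4 lies highest for erythroid markers.

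Apart from pseudogene copies and the parent gene Rps3a1, no gene passed the test between AUG and AUG_WT. With 8 libraries, edgeR's quasi-likelihood test with Benjamini-Hochberg adjustment called 3 of 13623 genes (0.022%), of which 2 (0.0147%) were higher and 1 (0.00734%) was lower in AUG. With 7 libraries it called 4 of 13794 (0.029%), 3 (0.0217%) higher and 1 (0.00725%) lower. The only protein-coding gene among them in either fit was Rps3a1, 1 of 12026 (0.00832%) with 8 libraries and 1 of 12113 (0.00826%) with 7. The called genes that are higher in AUG are all annotated as processed pseudogenes, a label for copies of transcripts inserted elsewhere in the genome.

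Each of these genes has a near-identical relative. The stretches below come from the GENCODE M21 transcripts (GRCm38) and lie within the coding part of the parent gene. For a read inside a stretch, only the few differing bases, in capitals, can tell one gene from the other. Rps3a1 encodes a ribosomal protein of the small subunit, and over 795 aligned bases its coding sequence and Rps3a3 differ at 9.
Rps3a1: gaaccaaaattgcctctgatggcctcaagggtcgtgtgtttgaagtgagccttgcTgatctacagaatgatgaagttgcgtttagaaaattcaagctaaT
Rps3a3: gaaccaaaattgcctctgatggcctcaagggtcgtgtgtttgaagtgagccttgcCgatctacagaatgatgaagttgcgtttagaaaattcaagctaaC
Hist2h2aa1 encodes a replication-dependent histone H2A, and Hist1h2al matches it over 339 bases with 2 mismatches.
Hist2h2aa1: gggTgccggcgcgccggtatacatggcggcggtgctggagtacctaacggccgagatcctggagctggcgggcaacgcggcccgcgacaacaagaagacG
Hist1h2al: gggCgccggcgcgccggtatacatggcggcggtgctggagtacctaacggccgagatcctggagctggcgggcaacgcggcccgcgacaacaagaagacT
Fabp5 encodes a fatty acid binding protein, and Gm6166 matches it over 409 aligned bases with 5 mismatches and 2 gap bases.
Fabp5: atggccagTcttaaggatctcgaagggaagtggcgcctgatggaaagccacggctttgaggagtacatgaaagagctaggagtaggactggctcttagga
Gm6166: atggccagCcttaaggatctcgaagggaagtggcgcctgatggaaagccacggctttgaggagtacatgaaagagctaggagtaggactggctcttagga
A count of uniquely aligned reads can move between such genes, so the values of all of them are uncertain. Stretches of 100 bases were chosen as the first window with the most differences. For Gm6166 and Fabp5, whose alignment has gaps, only its ungapped first part was searched, so other stretches may differ more.

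Rps3a1 (ENSMUSG00000028081.7, chromosome 3) was at 19.1, 14.6, 17.8 and 16.00 CPM in AUG replicates 1 to 4 and at 118, 71.8, 83.9 and 106 CPM in AUG_WT replicates 1 to 4. All 4 AUG libraries lay below all 4 wild types, and replicate 1 was the highest. Its log2 fold change was -2.49 (SE 0.18, edgeR adjusted p = 0.00294) with 8 libraries and -2.37 (SE 0.16, adjusted p = 0.00165) with 7. Rps3a3 (ENSMUSG00000059751.8, chromosome 13) did the opposite, at 51.6, 40.3, 46.5 and 49.7 CPM in AUG and 0.288, 0.287, 0 and 0.0796 CPM in AUG_WT. Its 2051 AUG counts and 8 AUG_WT counts gave a ratio, scaled for depth, of 271.5 (95% exact interval 137.5 to 629.7, which covers counting error only), or 376.9 (147 to 1385) without replicate 1, with adjusted p-values of 2.84e-04 and 9.59e-05 in edgeR. In the del7 and del7_WT libraries of the same series, which belong to another Terc mutant and its wild types, Rps3a3 was at 0 to 0.192 CPM and Rps3a1 at 65.7 to 95.8 CPM, so among the 4 groups of the series the AUG livers alone had this pattern. Summed over the 7 genes of at least 95% identity, the Rps3a total was 71.1, 55.1, 64.7 and 66.1 CPM in AUG and 119, 72.7, 84.4 and 106 CPM in AUG_WT. The highest AUG total lay just under the lowest wild-type total, and the difference of mean log2 totals was -0.55, or -0.44 without replicate 1, beside fitted log2 fold changes of -2.49 and -2.37 for Rps3a1 alone.

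Hist1h2al (ENSMUSG00000091383.3, chromosome 13) was at 4.25, 2.69, 6.62 and 5.68 CPM in AUG and at 0, 0, 0.114 and 0 CPM in AUG_WT. The wild types held 1 count in all against 212 in AUG, a ratio of 224.5 (95% exact interval 39.9 to 8909), or 155.8 (27.7 to 6184) without replicate 1. The edgeR adjusted p was 0.0179 with 8 libraries and 0.0356 with 7, and in both sets the call needed every library but AUG replicate 2 and AUG_WT replicate 1. It was also lost with unstranded counts and with the replicate number as a block, in both sets. Its nearest relatives, Hist2h2aa1 and Hist2h2aa2, were at 0 CPM in all 8 libraries. Both match Hist1h2al with 2 mismatches, and multimapping reads were not counted, so a 0 does not show that these genes are silent. Hist2h2ac, which differs from Hist1h2al at 6 of 339 bases, was at 6.51, 3.55, 5.08 and 3.84 CPM in AUG and 22.1, 6.49, 7.30 and 8.12 CPM in AUG_WT, so that the highest AUG value and the value of AUG_WT replicate 2 nearly coincided. The log2 fold change of Hist2h2ac was -1.21 (SE 0.43) with 8 libraries and -0.62 (SE 0.24) with 7, and it did not pass (adjusted p = 0.943 and 0.971, edgeR).

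Gm6166 (ENSMUSG00000074280.7, chromosome 9) was called by edgeR only without AUG_WT replicate 1. It was at 3.89, 5.92, 7.29 and 4.16 CPM in AUG, at 7.06 CPM in AUG_WT replicate 1 and at 0 in AUG_WT replicates 2 to 4. With 7 libraries it was 55.4-fold higher in AUG against a floor of 3 counts over the 3 wild types (adjusted p = 0.0356, edgeR). The 95% exact interval of the ratio of counts began at 44.7-fold. With 8 libraries the ratio of counts was 2.44 (95% exact interval 1.92 to 3.13, edgeR adjusted p = 0.943). In the 7-library fit the call was lost with any further library left out, with the replicate block and with the del7 and del7_WT libraries in the fit, while limma voom with sample quality weights called it with 8 libraries too. The del7_WT livers, also wild type, had 5.67 to 25.7 CPM of Gm6166 and del7 had 5.19 to 23.8. Gm6166 was thus counted in 13 of the 16 libraries of the series, and the 3 without it were all AUG_WT. Fabp5 overlapped between the groups, at 16.9, 33.1, 39.3 and 6.32 CPM in AUG and 32.8, 31.4, 26.8 and 14.1 CPM in AUG_WT.

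Tes3-ps (chromosome 13) is a protein-coding entry by its annotation, and its transcript matches that of Dcun1d1 over 2793 bases at 99.0% identity. At lower depth, it too was at 0 in AUG_WT replicates 2 to 4. Unlike Gm6166, it lay below every AUG library in AUG_WT replicate 1 as well. It was at 1.63, 1.08, 1.63 and 2.24 CPM in AUG, at 0.216 CPM in AUG_WT replicate 1 and at 0 in the other 3 wild types. The 73 counts in AUG against 3 gave a ratio of 25.8 (95% exact interval 8.48 to 127.8). Without replicate 1 it was 17.9-fold against the same floor, with an exact interval from 14.2-fold upward. Tes3-ps did not pass (adjusted p = 0.581 with 8 libraries and 0.227 with 7, edgeR). The del7 and del7_WT livers had 1.05 to 2.73 CPM of Tes3-ps. Dcun1d1 was at 55.2, 55.2, 54.2 and 51.9 CPM in AUG and 36.6, 39.2, 53.7 and 43.8 CPM in AUG_WT. Its log2 fold change was 0.32 (SE 0.13) with 8 libraries and 0.25 (SE 0.12) with 7, without passing (adjusted p = 0.943 and 0.971, edgeR). Summed with Tes3-ps it was at 54.15 to 56.82 CPM in AUG and 36.83 to 53.71 CPM in AUG_WT. Both genes thus leaned higher in AUG, unlike Rps3a1 and Rps3a3. Tes3-ps and the relatives compared here were picked with their values known. The nearest protein-coding relatives of all 4 genes, Rps3a1, the Hist2h2a genes, Fabp5 and Dcun1d1, lie on chromosome 3, which is also the chromosome of Terc.

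**Figure D2:**
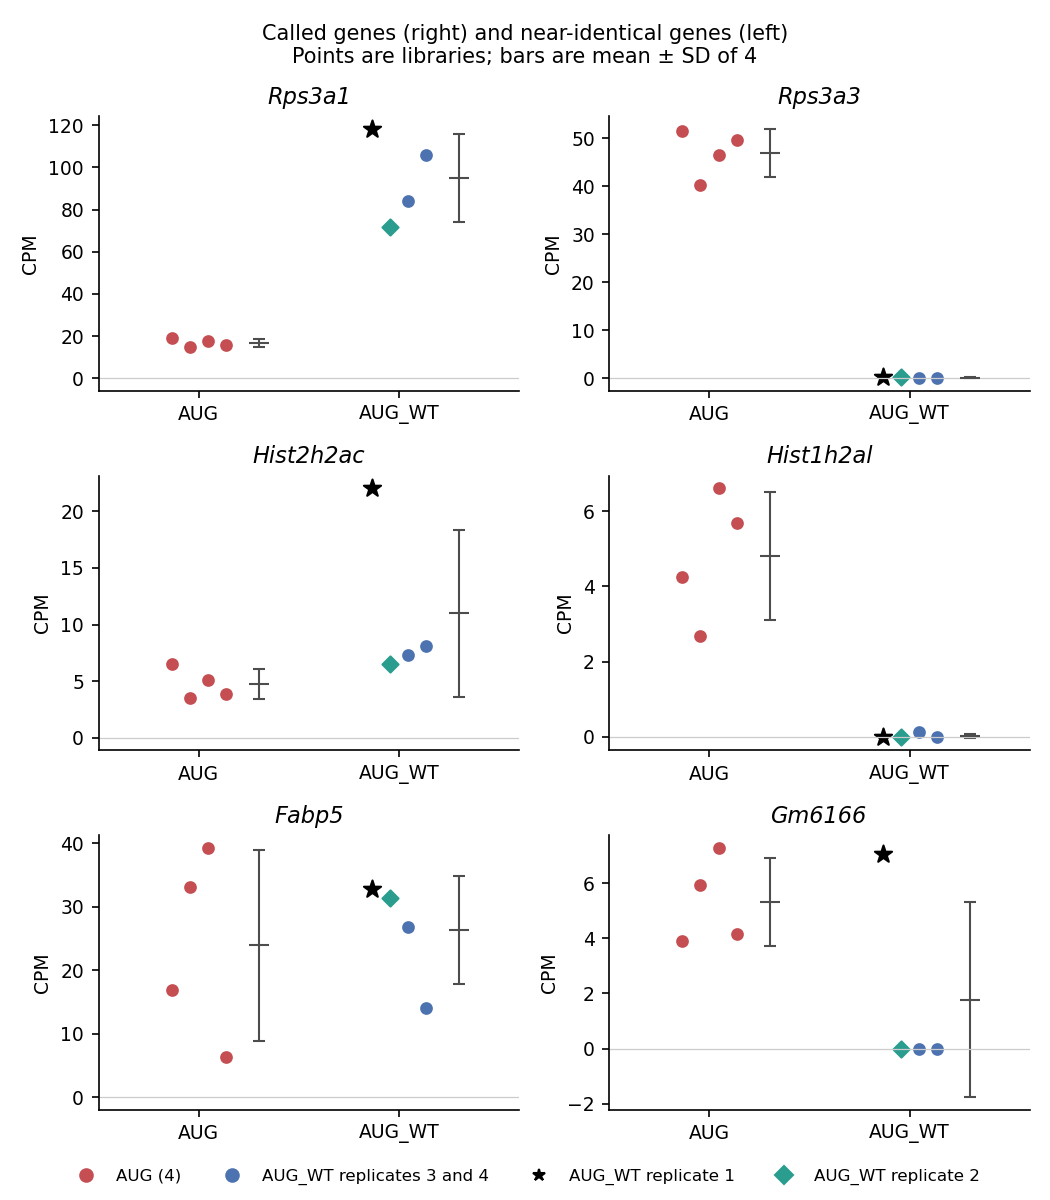
Level (CPM) of 3 called genes in the right column and of a near-identical gene of each in the left column, with 1 point per library and bars for the mean ± SD of 4 libraries. Rps3a3 and Hist1h2al are near 0 in every AUG_WT library, while Gm6166 is at 0 in AUG_WT replicates 2 to 4 and at 7.06 CPM in replicate 1, and Fabp5 overlaps between the groups.

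For the remaining protein-coding genes, fold changes were small once AUG_WT replicate 1 was set aside. The middle 90% of log2 fold changes ran from -1.01 to 0.33 with 8 libraries and from -0.43 to 0.42 with 7. Genes more than 2-fold lower in AUG numbered 609 with 8 libraries and 119 with 7, and those more than 2-fold higher 28 and 59. The 95% interval of the fold change lay within 2-fold either way for 73.3% of the 12026 genes and for 82.5% of the 12113. The direction itself changed for many genes: 8143 of 12026 (67.7%) had the same sign in both fits. AUG_WT replicate 1 was the highest of the 8 libraries for 34.9% of protein-coding genes and the lowest for 31.5%. The median SD within a group, on the log2 scale, was 0.20 in AUG, 0.36 in AUG_WT and 0.20 in AUG_WT replicates 2 to 4.

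**Figure D3:**
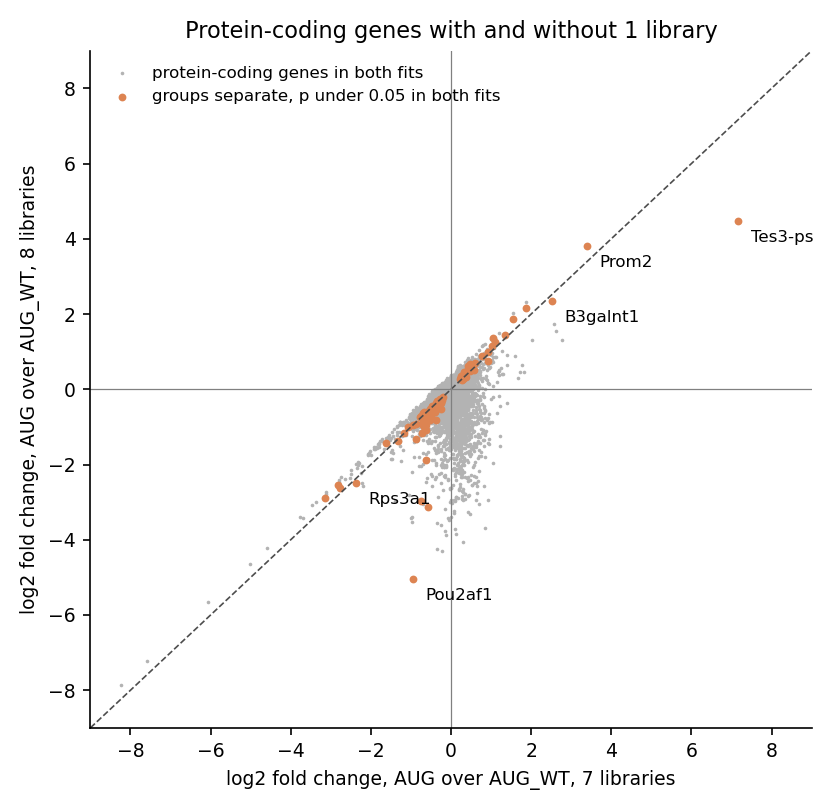
Log2 fold change of AUG over AUG_WT for each protein-coding gene with all 8 libraries (vertical axis) and without AUG_WT replicate 1 (horizontal axis), the dashed line marking equal values. Orange points are the 95 genes whose groups separate and whose unadjusted p is under 0.05 in both fits, and the grey cloud under 0 near the vertical axis holds genes that are lower in AUG only when that library is included.

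At an unadjusted p under 0.05 there were 288 protein-coding genes (2.39%) with 8 libraries, 71 higher (0.59%) and 217 lower (1.8%) in AUG, and 472 (3.9%) with 7, 198 higher (1.63%) and 274 lower (2.26%). Where no gene differs, a threshold of 0.05 passes a share of about 0.05, and neither share at an unadjusted p was above that. The groups did not overlap for 243 genes (2.02%) with 8 libraries and 642 (5.3%) with 7. Some genes separate under any split of the libraries, and more of them with 7 than with 8. Both criteria together, with the same sign in both fits and all 8 libraries separated, were met by 95 genes (0.79%), 42 higher (0.349%) and 53 lower (0.441%). The 12 in each direction with the smallest p and a mean of at least 1 CPM are described next. They were selected by this contrast, so their values are a description. Where a pair of log2 fold changes is given from here on, the first is with 8 libraries and the other with 7, and where CPM values are set against each other, AUG replicates 1 to 4 come first. Apart from Rps3a1 their edgeR adjusted p-values ran from 0.374 to 0.943 with 8 libraries and from 0.35 to 0.971 with 7. All 24 kept their direction in each of 35 alternative fits, which changed the processing or left out libraries, and 19 kept an unadjusted p under 0.05 in all of them. Without AUG_WT replicates 1 and 2 together, 22 of the 24 did. Separation of all 8 libraries and p in both fits were conditions of the choice. These counts largely follow from it and are no test of the genes.

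Among genes above the wild types were enzymes and carriers of lipid and solute metabolism. B3galnt1, which adds N-acetylgalactosamine in the synthesis of the glycolipid globoside, was at 2.62, 4.74, 3.07 and 6.24 CPM in AUG and 1.08, 0.764, 0.684 and 0.717 CPM in AUG_WT. The wild types lay close together and under every AUG library, and the log2 fold change was 2.33 (SE 0.35) with 8 libraries and 2.52 (SE 0.39) with 7. Acer3, an alkaline ceramidase that splits ceramide into sphingosine and a fatty acid, was at 59.4, 42.1, 66.8 and 59.8 CPM in AUG and 23.8, 34.4, 30.4 and 35.4 CPM in AUG_WT, a log2 fold change of 0.88 (SE 0.18) with 8 libraries and 0.77 (SE 0.16) with 7. Slc22a29, of the organic anion carrier family, was at 18.00, 8.18, 15.6 and 13.9 CPM against 1.08, 5.35, 3.88 and 5.10 CPM. Its lowest wild type was replicate 1, and the log2 fold change moved from 1.86 to 1.54 without it. Hao1, the peroxisomal glycolate oxidase of hepatocytes, was at 82.1, 107, 102 and 107 CPM against 35.5, 75.1, 56.9 and 81.2 CPM, with 0.68 and 0.49. DESeq2 put B3galnt1 past its adjusted threshold in both sets of libraries, and Acer3, Slc22a29 and Asic5 in the 7-library set only.

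Asic5, an acid-sensing type of ion channel that bile acids can open, was at 8.05, 9.69, 8.53 and 13.1 CPM in AUG and 0.577, 3.44, 3.76 and 1.11 CPM in AUG_WT, with log2 fold changes of 2.17 (SE 0.54) with 8 libraries and 1.86 (SE 0.38) with 7. Prom2, a glycoprotein of membrane protrusions, was at 7.69, 8.29, 16.2 and 8.16 CPM against 0.0721, 2.58, 0 and 0.239 CPM. AUG replicate 3 was the highest, and AUG_WT replicate 2 was the 1 wild type above 1 CPM. The log2 fold change of Prom2 was 3.81 and 3.40, or 6.36 and 6.06 without AUG_WT replicate 2. Fgfr4, the hepatocyte receptor through which FGF15 from the gut restrains bile acid synthesis, was at 53.1, 51.9, 57.05 and 51.99 CPM against 29.1, 38.2, 46.6 and 42.8 CPM. The AUG values lay within a narrow band, and the log2 fold change was 0.45 with 8 libraries, 0.33 with 7 and 0.26 without AUG_WT replicates 1 and 2. Wnt5a, a ligand of non-canonical Wnt signalling, had a log2 fold change of 0.99 and 0.93, with 3.01 to 5.61 CPM in AUG and 1.80 to 2.48 CPM in AUG_WT. Gng11, a G protein gamma subunit, Smyd2, a lysine methyltransferase, Cul2, a scaffold of ubiquitin ligases, and Pdilt, a relative of protein disulfide isomerases, had log2 fold changes of 0.48, 0.44, 0.33 and 1.05 with 7 libraries. With 8 libraries the values were 0.58, 0.56, 0.34 and 1.37. Among these genes, Pdilt had the widest range in the wild types, 1.73 to 11.1 CPM, with replicate 4 just under the lowest AUG value of 11.9 CPM.

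Genes below the wild types included regulators of transcription and RNA. Ppp1r10, a nuclear regulatory subunit of protein phosphatase 1, was at 33.2, 33.9, 37.6 and 46.9 CPM in AUG and 56.9, 58.8, 68.4 and 63.1 CPM in AUG_WT. Its log2 fold change was -0.70 (SE 0.14) with 8 libraries and -0.74 (SE 0.14) with 7, and DESeq2 called it in both sets. Mef2d, a transcription factor of the MEF2 family, was at 38.99, 38.00, 41.1 and 39.9 CPM against 53.6, 53.7, 52.5 and 46.4 CPM, so that a small difference of -0.38 (7 libraries: -0.36) separated all 8 libraries. Tent5c, a poly(A) polymerase that lengthens messenger RNA tails, was at 21.2, 17.3, 28.2 and 26.5 CPM against 44.3, 30.2, 42.9 and 62.2 CPM, with -0.95 and -0.95. Scnm1, a splicing factor, had -0.61 in both, from 4.95 to 6.51 CPM in AUG and 6.97 to 9.32 CPM in AUG_WT. Mafk, a small Maf protein that pairs with NRF2 and other factors, had -0.44 and -0.48. Msh5, a MutS protein of meiotic recombination, had -1.31 and -0.88, with AUG_WT replicate 1 at 8.43 CPM and the other wild types at 3.63, 4.10 and 3.11 CPM.

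The others lower in AUG were Fam160a1, at 2.44, 3.55, 5.18 and 3.68 CPM against 6.49, 9.07, 6.73 and 7.72 CPM, with log2 fold changes of -1.01 and -1.08, and 4 genes of lipid uptake, interferon response and matrix. Slc27a1, a fatty acid transport protein, had -0.74 and -0.78. Ifi27l2b, of an interferon-inducible family, was at 5.52, 5.71, 4.99 and 4.88 CPM in AUG and 14.99, 21.9, 10.4 and 7.41 CPM in AUG_WT. Its AUG values were nearly equal while the wild types were spread. The log2 fold change was -1.37 with 8 libraries, -1.32 with 7 and -0.75 without AUG_WT replicates 1 and 2. Crtap, which takes part in collagen prolyl hydroxylation, had -0.53 in both fits, and Ltbp3, which binds latent TGF-beta, had -0.80 and -0.60.

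**Figure D4:**
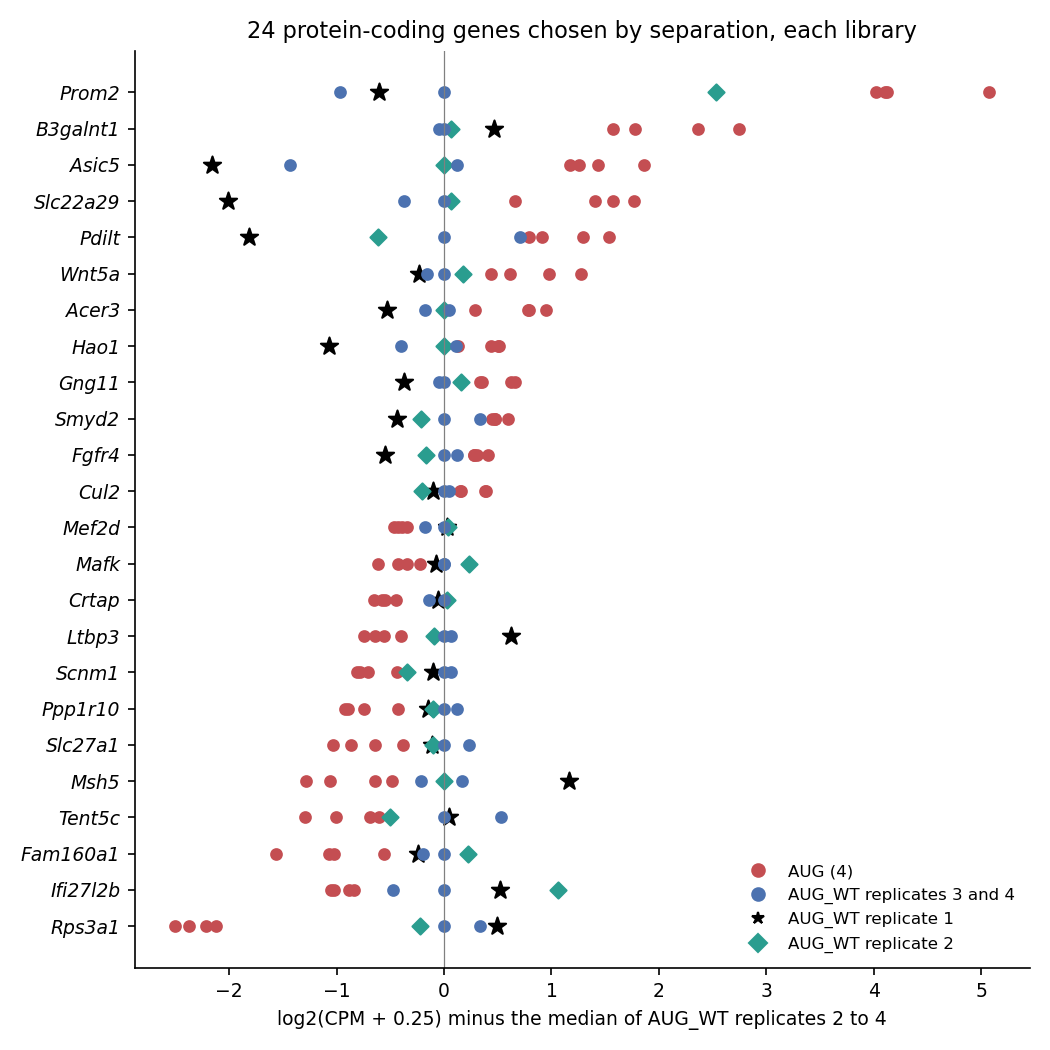
Level of the 24 protein-coding genes in each library as log2(CPM + 0.25), shown as the distance from the median of AUG_WT replicates 2 to 4. AUG points (red) lie on one side of all AUG_WT points in every line because the genes were chosen that way, and Rps3a1 and Prom2 are the farthest from 0.

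By chromosome, the 95 genes lay on every autosome and on X. Chromosome 3 held the largest share, 12 of 583 tested protein-coding genes (2.06%), followed by chromosome 1 with 12 of 720 (1.67%) and chromosome 16 with 6 of 383 (1.57%), beside 0.79% over all. On chromosome 3, 6 of the 12 were higher in AUG. These were B3galnt1, Asic5, Naaladl2 (0.70 and 0.61), Slc35a3 (0.35 and 0.24), Gpr89 (0.34 and 0.28) and Siah2 (0.33 and 0.25). The other 6 were lower, Rps3a1, Fam160a1, Tent5c, Scnm1, Chd1l (-0.60 and -0.41) and Mef2d. Siah2, a ubiquitin ligase, was at 30.04, 30.04, 30.1 and 28.6 CPM in AUG and 19.9, 25.02, 23.1 and 26.7 CPM in AUG_WT, with little spread in AUG. Chd1l, a chromatin remodeller, was at 9.500, 9.80, 7.19 and 9.12 CPM against 18.2, 13.8, 11.3 and 10.4 CPM. Those of the 12 that are not among the 24 genes above were named after their values were seen. Of the 24, 7 lie on this chromosome, which holds 583 of the 12026 protein-coding genes in both fits. The 24 are themselves part of the 95, so this is not a further result.

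Gene lists were then read for groups of genes that leaned one way. Each list is described by how many tested members lie above 0, by the median of their log2 fold changes, beside all protein-coding genes, of which 46.7% lay above 0 with a median of -0.02 (8 libraries) and 53.5% with 0.02 (7 libraries). Of 49 lists with at least 4 tested members, the sign of the median differed between the fits in 25. AUG_WT replicate 1 had the highest level of the 8 libraries in 20 lists and the lowest in 21. With 8 libraries no list had all AUG levels on one side of all AUG_WT levels, and with 7 libraries 1 list, the erythroid genes, did. Without replicate 1, 29 of the 49 medians lay within 0.1 of 0 and 42 within 0.25.

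**Figure D5:**
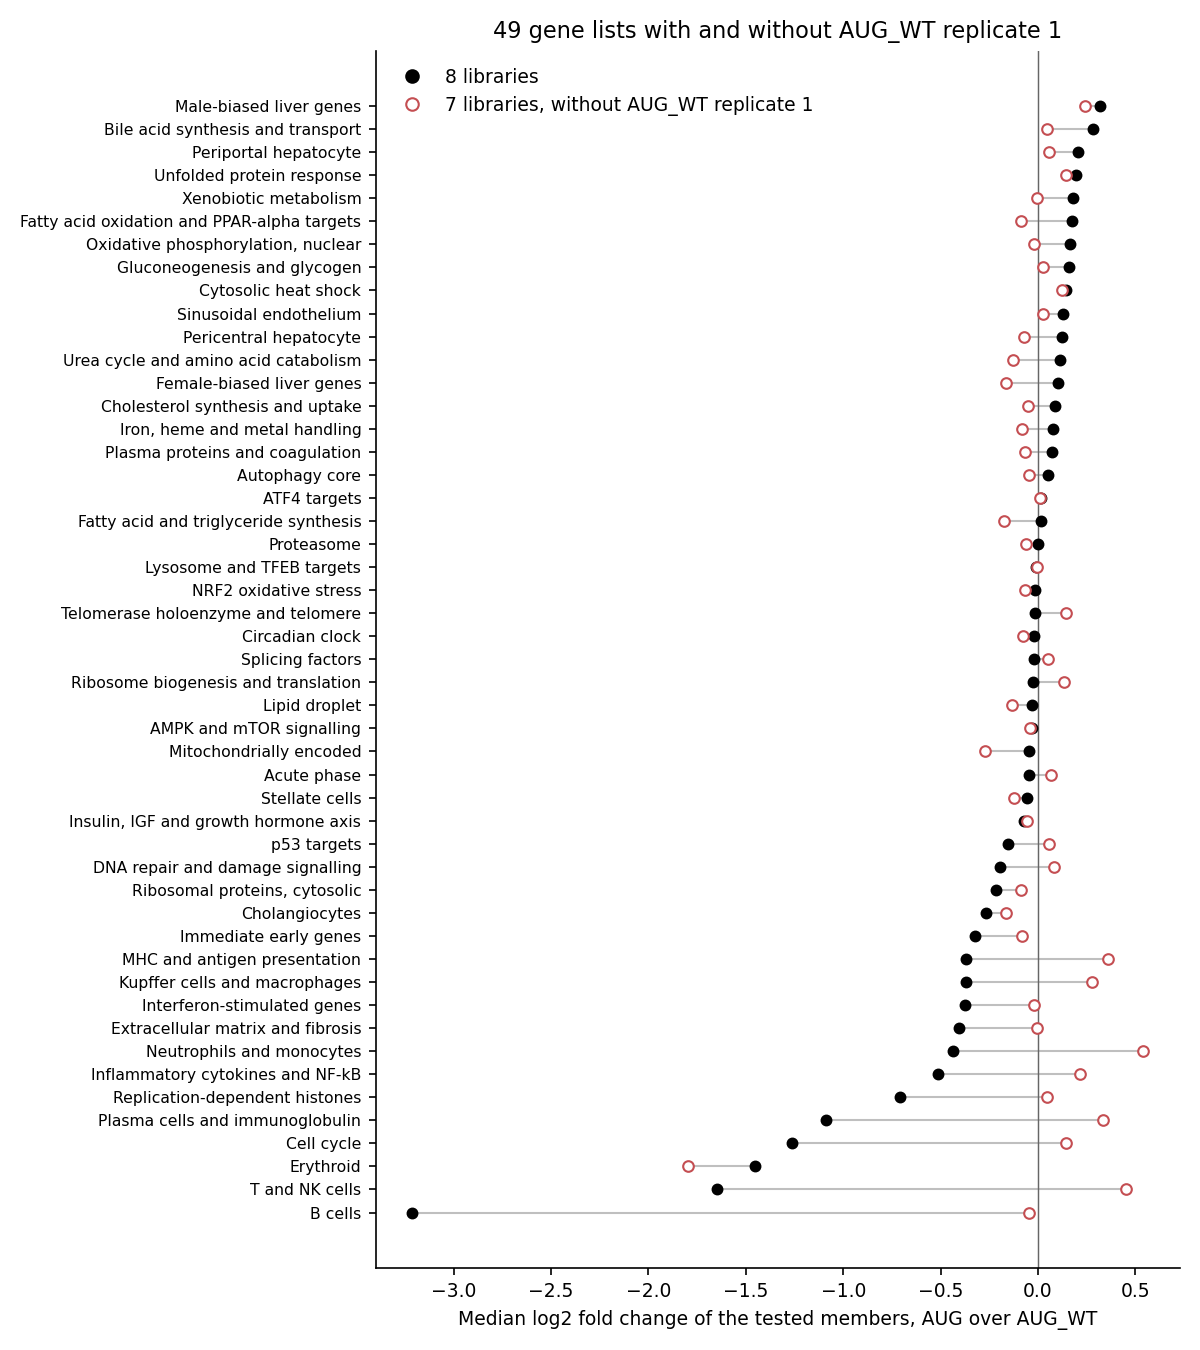
Median log2 fold change, AUG over AUG_WT, of the tested members of 49 gene lists with 8 libraries (black) and without AUG_WT replicate 1 (open red). Immune and cell cycle lists move from below 0 to near or above 0, most metabolic lists move toward or below 0, and without that library the erythroid list is the lowest at -1.79.

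Of the lists tied to what is known of TERP, autophagy, lysosome and AMPK and mTOR genes had medians within 0.1 of 0 in both fits, and telomerase and telomere genes did with 8 libraries but not with 7. Autophagy core genes had 25 of 39 above 0 with a median of 0.05 with 8 libraries and 15 of 39 above 0 with a median of -0.04 with 7. Their mean level was 0.00, 0.02, 0.00 and 0.07 in AUG on a log2 scale centred on each gene, 0.16, 0.03 and 0.06 in AUG_WT replicates 2 to 4 and -0.34 in replicate 1, so AUG and these 3 wild types overlapped. Atg4c, a protease that processes LC3 proteins, was at 16.6, 16.4, 17.7 and 17.1 CPM against 12.97, 14.9, 15.1 and 14.7 CPM, and Uvrag, which acts with Beclin 1 on membrane traffic, at 33.5, 38.4, 34.04 and 34.7 CPM against 85.5, 61.5, 40.02 and 32.1 CPM. Atg4c was a little higher in every AUG liver, and Uvrag was highest in AUG_WT replicates 1 and 2. Their log2 fold changes were 0.23 and -0.64 with 8 libraries and 0.19 and -0.33 with 7. That of Uvrag was -0.03 without AUG_WT replicates 1 and 2. Lysosome genes had 16 of 34 above 0 in both fits. The lysosomal proton pump subunit Atp6v0a1 had -0.25 and -0.28, or -0.16 and -0.17 without AUG_WT replicate 2. AMPK and mTOR signalling genes had 16 of 37 above 0 with a median of -0.03 and 12 of 37 above 0 with a median of -0.04. Sesn3, a sestrin that restrains mTORC1, was at 54.2, 63.2, 55.99 and 74.9 CPM against 111, 80.6, 88.7 and 72.1 CPM, overlapping through AUG replicate 4, with -0.50 and -0.37. Telomerase and telomere protein genes went from 8 of 22 above 0 with a median of -0.01 to 14 of 22 above 0 with a median of 0.14. Naf1, needed to assemble the telomerase ribonucleoprotein, had -0.30 and -0.26, and Pot1a, which binds the telomeric single strand, had -0.25 and -0.18, both below 0 while the list's median with 7 libraries was above it. The 7-library value of Pot1a was -0.08 without AUG replicate 2, -0.11 without AUG_WT replicate 4 and -0.30 without AUG replicate 4, and its 8-library value was -0.15 without AUG replicate 2. Of these 4 lists' members, none passed by edgeR, and at an unadjusted p under 0.05 there were 2 of 132 (1.52%) with 8 libraries, beside 2.39% of protein-coding genes, and 8 of 132 (6.06%) with 7, beside 3.9%.

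Stress genes included a pair of lists above 0 in both fits. Unfolded protein response genes, which expand the folding capacity of the endoplasmic reticulum, had 22 of 25 above 0 with a median of 0.20 with 8 libraries and 20 of 25 above 0 with a median of 0.14 with 7. Cytosolic heat shock genes had 16 of 20 above 0 with a median of 0.14 and 13 of 20 above 0 with a median of 0.12. In both lists 0 members had an unadjusted p under 0.05 in either fit, beside 2.39% and 3.9% of all protein-coding genes. The level of the unfolded protein response list was 0.73, -0.24, 0.14 and -0.37 in AUG and -0.09, 0.22, -0.10 and -0.31 in AUG_WT, so AUG replicate 1 was the highest and AUG replicate 4 the lowest of the 8. Canx, the chaperone calnexin, was at 697, 588, 593 and 532 CPM against 443, 570.5, 530.2 and 512 CPM, and Dnaja1, a cochaperone of HSP70, at 133, 83.7, 108 and 90.1 CPM against 73.2, 77.9, 99.9 and 78.8 CPM. Canx had log2 fold changes of 0.23 and 0.17, or 0.15 and 0.09 without AUG replicate 1. Dnaja1 had 0.33 and 0.28, or 0.18 and 0.13 without the same library. p53 target genes moved from a median of -0.15 to 0.06, DNA repair genes from -0.20 to 0.08, and immediate early genes from -0.32 to -0.08, and AUG_WT replicate 1 had the highest level for these 3 lists. ATF4 and NRF2 target genes had medians within 0.1 of 0 in both fits. Slc3a2, the heavy chain of several amino acid transporters, was at 56.5, 52.1, 57.05 and 39.1 CPM against 45.04, 39.1, 42.5 and 36.2 CPM and had 0.33 and 0.39.

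Hepatocyte metabolism turned with AUG_WT replicate 1. Nuclear genes of oxidative phosphorylation had 43 of 44 above 0 with a median of 0.16 with 8 libraries and 16 of 44 above 0 with a median of -0.02 with 7. Their level was 0.15, 0.08, -0.01 and 0.20 in AUG, -0.81 in AUG_WT replicate 1 and -0.06, 0.18 and 0.27 in AUG_WT replicates 2 to 4. Fatty acid oxidation and PPAR-alpha target genes went from 33 of 39 above 0 with a median of 0.18 to 6 of 39 above 0 with a median of -0.09, with replicate 1 at -1.67 against 0.24, 0.20 and 0.54 in the other wild types. Urea cycle and amino acid genes went from 31 of 43 above 0 with a median of 0.11 to 12 of 43 above 0 with a median of -0.13, and xenobiotic genes from 37 of 49 above 0 to 23 of 49.

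For lipid genes AUG_WT replicate 2 carried several of the differences. Fads1, a desaturase of polyunsaturated fatty acids, was at 546, 587, 503 and 562 CPM in AUG and 283, 2398, 731 and 595 CPM in AUG_WT. Replicate 2 was far above the other 7, and the log2 fold changes of -0.87 and -1.17 turned to 0.04 with AUG_WT replicate 2 left out of the 8. Agpat2, an enzyme of triglyceride synthesis, was at 104, 98.6, 96.5 and 97.3 CPM against 39.1, 85.96, 93.2 and 89.1 CPM, above each wild type in AUG. Its log2 fold change of 0.37 became 0.15 without replicate 1. Pnpla2, the main triglyceride lipase of lipid droplets, had -0.31 and -0.45 (-0.18 with either AUG replicate 1 or AUG_WT replicate 2 left out of the 8), from 36.7 to 59.03 CPM in AUG and 44.03 to 81.00 CPM in AUG_WT. Ucp2, an inner mitochondrial membrane carrier, was at 34.7, 86.7, 62.4 and 59.4 CPM against 216, 199, 42.6 and 70.6 CPM. AUG_WT replicates 1 and 2 held the high values, and its 7-library value of -0.77 turned to 0.10 without AUG_WT replicate 2.

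Bile acid and glucose genes held a few members that leaned the same way in both fits. Bile acid synthesis and transport genes had 23 of 26 above 0 with a median of 0.28 with 8 libraries and 15 of 26 above 0 with a median of 0.05 with 7. Besides Fgfr4, Scp2, a peroxisomal thiolase and sterol carrier of bile acid side chain cleavage, was at 584, 759, 598 and 691 CPM in AUG and 245, 434, 487 and 544 CPM in AUG_WT. The groups did not overlap, and the log2 fold change was 0.62 (SE 0.26) with 8 libraries and 0.43 (SE 0.15) with 7, without passing (adjusted p = 0.943 and 0.971, edgeR). These 2 of 26 were the members with an unadjusted p under 0.05 in either fit, both higher, beside 0.59% (8 libraries) and 1.63% (7) of protein-coding genes. Ppp1r3b, which targets protein phosphatase 1 to glycogen, was at 611, 255, 263 and 205 CPM against 139, 164, 297 and 184 CPM. AUG replicate 1 was the highest library by far, and the rest of AUG overlapped the wild types. The log2 fold changes of 0.77 and 0.64 became 0.29 and 0.16 without AUG replicate 1. Igfbp1, an insulin-repressed binding protein of insulin-like growth factors, was at 57.7, 19.1, 13.8 and 24.1 CPM against 39.8, 154, 23.3 and 66.8 CPM, with -1.31 and -1.49, or -0.59 and -0.66 without AUG_WT replicate 2.

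The medians of female-biased and male-biased liver genes, which growth hormone pulses set, lay on opposite sides of 0 with 7 libraries only. Female-biased genes went from 15 of 26 above 0 with a median of 0.10 to 8 of 26 above 0 with a median of -0.16, and without replicate 1, 7 of 26 had an unadjusted p under 0.05, all lower, beside 2.26% of protein-coding genes that were lower. Cyp3a16, a female-biased cytochrome P450, was at 41.7, 6.35, 102 and 131 CPM in AUG and 30.1, 509, 160.0 and 214 CPM in AUG_WT, and Cux2, a transcription factor of female liver, at 64.96, 54.8, 90.9 and 109.9 CPM against 44.3, 226, 108 and 128 CPM. AUG_WT replicate 2 was the highest library for both. The log2 fold change of Cyp3a16 was -1.70 and -2.05, the first becoming -0.93 without AUG_WT replicate 2. That of Cux2 was -0.66 and -0.94, or -0.22 and -0.56 without the same library. Male-biased genes had 13 of 18 above 0 with a median of 0.32 and 14 of 18 above 0 with a median of 0.24. Mup3, a major urinary protein, was at 395, 506, 457 and 539.9 CPM against 27.3, 52.8, 442 and 330.0 CPM, with AUG_WT replicates 1 and 2 both low and replicates 3 and 4 at 442 and 330.0 CPM. Its log2 fold change was 1.16 and 0.79. The 7-library value was 0.30 without AUG_WT replicate 2 and 1.31 without AUG_WT replicate 3.

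Secreted proteins and metal-binding proteins gave wide spreads. Serpina6, the corticosteroid-binding globulin of plasma, was at 389, 335, 384 and 705 CPM in AUG and 102, 13064, 596 and 638 CPM in AUG_WT, and its log2 fold change of -2.99 with 8 libraries became 0.03 without AUG_WT replicate 2. Mt1 and Mt2 encode metallothioneins, which bind zinc and copper and are induced in the acute phase. Mt2 was at 4.61, 31.8, 5.37 and 33.99 CPM against 160.4, 48.3, 199 and 18.2 CPM, with -2.49 and -2.21, and Mt1 at 25.4, 81.2, 31.1 and 91.8 CPM against 231, 85.6, 335 and 57.9 CPM, with -1.63 and -1.47. In both genes AUG replicates 2 and 4 and AUG_WT replicates 2 and 4 overlapped, and AUG_WT replicates 1 and 3 were highest. With AUG_WT replicate 3 left out of the 7 libraries, the log2 fold change was -0.80 for Mt2 and -0.31 for Mt1. C8b, a complement chain of the membrane attack complex, was at 32.8, 128, 70.1 and 39.03 CPM against 57.7, 2.29, 32.3 and 15.1 CPM, lowest in AUG_WT replicate 2. Its log2 fold change was 1.32 and 2.03, and the 8-library value was 0.82 without AUG replicate 2. Cytosolic ribosomal protein genes had 1 of 57 above 0 and a median of -0.22 with 8 libraries, and 10 of 57 with -0.09 without replicate 1. Their level was 0.00, -0.14, -0.20 and -0.07 in AUG and 0.42, -0.29, 0.01 and 0.28 in AUG_WT, so the groups overlapped in both sets.

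Immune and cell cycle genes also moved with AUG_WT replicate 1. B cell genes had 0 of 16 above 0 with a median of -3.21 with 8 libraries, and 7 of 16 with -0.05 with 7. At an unadjusted p under 0.05, 9 of the 16 were lower with 8 libraries, beside 1.8% of protein-coding genes, and 1 of 16 with 7, beside 2.26%. Pou2af1, a coactivator of B cells, was at 0.724, 1.40, 1.15 and 1.04 CPM in AUG, 135 CPM in AUG_WT replicate 1 and 2.29, 2.39 and 1.59 CPM in AUG_WT replicates 2 to 4. Even without replicate 1 its AUG values were below the wild types, with log2 fold changes of -5.04 and -0.95. Ighm, the constant region of IgM, was at 28.9, 44.03, 32.4 and 42.95 CPM against 427, 321, 41.4 and 58.5 CPM, high in both AUG_WT replicates 1 and 2. Mki67, a marker of dividing cells, was at 5.07, 8.40, 4.70 and 5.28 CPM against 234, 20.9, 9.92 and 4.14 CPM, and the cell cycle list went from 0 of 19 above 0 (-1.26) to 13 of 19 (0.14). T and NK cell genes went from -1.65 to 0.45, genes of antigen presentation from -0.37 to 0.36, and inflammatory genes from -0.51 to 0.22.

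Without AUG_WT replicate 1, myeloid and antigen presentation lists had most members above 0. Neutrophil and monocyte genes had 11 of 11 above 0 with a median of 0.54, genes of antigen presentation 24 of 26 above 0 with a median of 0.36, and Kupffer cell genes 20 of 26 above 0 with a median of 0.28. With all 8 libraries these were 2 of 11 above 0 with a median of -0.44, 10 of 26 above 0 with a median of -0.37 and 10 of 26 above 0 with a median of -0.37. The AUG levels were spread, and neutrophil and monocyte genes stood at -0.75, 0.94, 0.31 and -1.03 in AUG and -0.34, -0.70 and -0.69 in AUG_WT replicates 2 to 4, with AUG replicates 2 and 3 above 1 and 4. AUG replicates 2 and 3 also lay above 1 and 4 for B cell, T and NK cell and antigen presentation levels. Ccl2, a chemokine that draws monocytes, was at 1.54, 3.98, 3.26 and 1.04 CPM against 2.09, 1.34, 1.37 and 0.876 CPM, and H2-Q7, a class I antigen presentation gene with close relatives in its cluster, at 3.08, 15.1, 9.40 and 3.84 CPM against 10.7, 2.29, 4.33 and 2.39 CPM. Ccl2 had log2 fold changes of 0.77 and 1.03, and H2-Q7 had 0.65 and 1.39. Without AUG replicate 2 the 8-library values were 0.44 and 0.13, and the 7-library value of H2-Q7 was 0.86. Of 63 members tested in these 3 lists, 1 (1.59%), H2-Q7, had an unadjusted p under 0.05 with 7 libraries, beside 3.9% of protein-coding genes.

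Erythroid genes were the list farthest from 0 without AUG_WT replicate 1, and their median was below 0 in both fits. They had 2 of 11 above 0 with a median of -1.46 with 8 libraries and 1 of 11 above 0 with a median of -1.79 with 7, and 5 of 11 and 7 of 11 had an unadjusted p under 0.05, all lower, beside 1.8% and 2.26% of protein-coding genes. None passed by edgeR. The globin Hbb-bt was at 7.78, 9.15, 10.6 and 20.6 CPM in AUG and 15.8, 25.7, 62.6 and 163 CPM in AUG_WT, Hba-a1 at 24.9, 26.4, 46.2 and 75.2 CPM against 22.9, 117, 117 and 502 CPM, and Hbb-bs at 80.8, 84.1, 188 and 349 CPM against 73.2, 365, 411 and 1838 CPM. AUG_WT replicate 4 was the highest in all 3, and AUG_WT replicate 1 lay within or below the AUG range, so the groups separate only without it. Bpgm, the enzyme of the red cell metabolite that lowers oxygen affinity, was at 8.23, 10.1, 10.7 and 10.8 CPM against 10.7, 34.6, 13.6 and 28.3 CPM, with -1.13 and -1.35, and DESeq2 called it with 7 libraries. Alas2, which starts heme synthesis in red cell precursors, was at 8.69, 12.4, 13.8 and 24.9 CPM against 6.27, 32.4, 27.3 and 95.96 CPM, with -1.44 and -1.79. Klf1, a transcription factor of erythroid precursors, had 0.01 and -0.24, and Tfrc, the transferrin receptor, -0.21 and 0.28. Members other than Hbb-bt and Bpgm were named after their values were seen. The summed erythroid markers were 140.0, 151, 294 and 531 CPM in AUG and 136, 614, 699 and 2960 CPM in AUG_WT, highest in AUG_WT replicate 4. The part of the blood content of a tissue piece in these values was not tested.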

How the data were processed

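RNA was measured in 16 mouse liver samples, and the 8 of AUG and AUG_WT were analysed, grouped by the genotype in their labels. Libraries were directional and depleted of ribosomal RNA, per the labels' protocols. The submitters' processing notes name cutadapt 2.10, STAR 2.7.9a and the build GRCm39, without an annotation release. Raw counts per gene were deposited by the authors, and in 16 of 16 samples these equal the reverse-strand counts of the sample's own table. Unmapped (2.82% to 3.85% of a library), multimapping (9.23% to 13.85%) and unassigned lines (21.8% to 35.0%) stayed out. GENCODE M21 (GRCm38) gave names, biotypes and chromosomes for 52081 of 55357 genes, and its transcripts were compared with blastn 2.17.0 (at least 95% identity over 300 bases).

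Each set of libraries was fitted alone with edgeR 4.0.16 in R 4.3.3 (filterByExpr with a minimum count of 10, TMM scaling, quasi-likelihood test of group, Benjamini-Hochberg adjustment over all tested genes, threshold 0.05, two-sided). The median SE of a log2 fold change was 0.24 with 8 libraries and 0.19 with 7. On simulated counts with 200 changed genes the 8-library comparison (13623 genes) called 0 of 64 changed 1.5-fold, 14.5% of 69 changed 2-fold and 71.6% of 67 changed 4-fold, and the 7-library comparison (13794 genes) 3.03%, 49.3% and 83.1%. Among unchanged genes 4 of 13299 and 12 of 13413 were called. Each of the 12 pairs of libraries within a group differed by more than sampling noise (smallest chi-square 18.3 per gene). List levels are means of log2 CPM (prior count 2) after centring each gene on its mean.

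Genes with a clone-like name were left out of the naming rule. Named were called genes, the 12 protein-coding genes per direction with the smallest larger p of both fits among those separated in all 8 libraries with a mean of at least 1 CPM, and up to 2 members per list by the same p, a few of which are not reported here. The members, lists, rule and tests were chosen with earlier results of these data known. Alternatives were RLE size factors, no filter or a mean of at least 1 CPM, protein-coding genes only, DESeq2 1.42.0, limma 3.58.1 voom with and without sample quality weights, the del7 libraries in the fit, the replicate number as a block, unstranded counts, and each library left out.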

Additional observations from a re-analysis of the deposited data

Results flagged for a closer look

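A library was singled out when its gap to the nearest of its group's 4 libraries, divided by the group's range, exceeded Dixon's 95% critical value. Chance alone gives about 1 in 20 such groups. Of 162 groups examined, 16 exceeded it, 2 in AUG and 14 in AUG_WT, and 11 of these came from AUG_WT replicate 1.

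Replicate 1 of AUG_WT was the highest for the levels of B cell genes (ratio 0.883; level 4.29 against a median of -0.46 in the other 3), cell cycle genes (0.88; 2.58 against -0.30), plasma cell genes (0.87; 2.51 against -0.55) and neutrophil and monocyte genes (0.877; 2.27 against -0.69). It was also the highest for inflammatory genes (0.944; 1.63 against -0.34), antigen presentation genes (0.887; 1.47 against -0.39), extracellular matrix genes (0.926; 1.08 against -0.16) and telomerase and telomere genes (0.852; 0.39 against -0.13). It was the lowest for fatty acid oxidation genes (0.846; -1.67 against 0.24) and lipid droplet genes (0.904; -0.87 against 0.20). Its share of reads outside annotated genes was 35.0% against a median of 24.6% (0.867).

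In AUG, replicate 2 was the highest for cell cycle genes (0.899; 0.03 against -0.47) and replicate 3 for Prom2 (0.93; 16.2 CPM against 8.16). In AUG_WT, replicate 2 was the highest for Prom2 (0.907; 2.58 CPM against 0.0721), replicate 4 the lowest for Mef2d (0.831; 46.4 CPM against 53.6), and replicate 3 the only one with a count of Hist1h2al (1; 0.114 CPM against 0).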

How the results depend on the processing

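The 1 lower call, Rps3a1, held in both sets of libraries under every alternative run. Genes higher in AUG numbered 2 with 8 libraries and 3 with 7. Leaving out 1 library gave 1 to 3 from the 8 and 1 to 2 from the 7, through Hist1h2al and Gm6166. DESeq2 gave 5 higher and 2 lower (8 libraries) and 10 higher and 4 lower (7), voom with quality weights 4 higher (8), and unstranded counts 1 higher (8). With protein-coding genes alone 0 were higher in either set. The cause was not tested, except that this last setting drops genes annotated as processed pseudogenes by construction.

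A pairing of the samples by replicate number was not clear. The check used deviations from group means that include AUG_WT replicate 1, so it cannot exclude a pairing. Deviations of same-numbered libraries correlated at -0.116, -0.107, -0.157 and 0.369, and only replicate 4 correlated best with its own number. With the replicate block 1 gene was higher and 1 lower in both sets.

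Among named genes, 5 turned direction when 1 library was left out. From the 8 libraries, leaving out 1 gave -1.17 to 0.0368 for Fads1, -0.46 to 0.0278 for mt-Nd5 and -3.38 to 0.0268 for Serpina6, the positive value without AUG_WT replicate 2 in each. From the 7, it gave -1.14 to 0.0953 for Ucp2, positive without AUG_WT replicate 2, and -0.40 to 0.039 for Trp53inp1, positive without AUG_WT replicate 3. Medians over all genes stayed between -0.06 and 0.02 in every setting. On simulated counts, drawn for each gene independently, edgeR called 14.5% of 2-fold changes with 8 libraries and 49.3% with 7. How this varies with a gene's depth was not tested.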

Other observations

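Some protein-coding genes were high or low in 1 library alone. Adding 0.5 CPM to both sides, 374 of 12113 genes were at least 4-fold above every other library in AUG_WT replicate 1, 41 in AUG_WT replicate 2, 3 in AUG_WT replicate 4, and 0 in AUG_WT replicate 3 and in each AUG library. At least 4-fold below every other library lay 31 genes in AUG_WT replicate 1, 19 in AUG_WT replicate 2, 2 in AUG replicate 2, 2 in AUG_WT replicate 3 and 0 in the other 4. The genes named here were chosen after their values were seen.

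In AUG_WT replicate 2 the genes were not those of lymphocytes. Peg3, a paternally expressed imprinted gene, was at 779 CPM against 4.32 to 14.1 CPM in the other 7 libraries, and Dnah11, a dynein chain of motile cilia, at 333 against 0.288 to 2.24. The major urinary protein genes Mup17 and Mup9, which have close relatives in their cluster, were at 751 and 584 CPM against at most 4.33 and 4.48. Low in the same library were the drug-metabolising cytochromes P450 Cyp3a11, at 37.2 CPM against 887 to 2500, and Cyp2b9, at 4.11 against 105 to 728. Mug2, a murinoglobulin protease inhibitor of plasma, was at 6.69 CPM against 329 to 963. In AUG_WT replicate 1 such genes included the B cell gene Cd22, at 340.0 CPM against 1.72 to 11.1, and Ttn, the gene of the muscle protein titin, at 256 against 2.08 to 12.4. The muscle markers in the same library summed to 0.0721 CPM.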
